A study of Mus musculus with 4 samples.

Results

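The subcutaneous adipose tissue (SAT) of *Napepld*-deleted mice on a control diet (CT) was set directly against that of wild-type mice fed a high fat diet (HFD), without going through the lean wild-type array. The comparison takes 2 of the 4 arrays of the study, cKO-CT and WT-HFD, chosen from their labels. WT mice carried the loxP-flanked gene on both alleles (NAPE PLD lox/lox) and no Cre, and cKO mice carried the same alleles with Cre under the AP2 (*Fabp4*) promoter (AP2 Cre NAPE PLD lox/lox). Cre driven by this promoter acts in white and brown adipocytes, and the paper cites reports of activity in other cells such as macrophages. The paper found lower *Napepld* expression in the adipocyte fraction, but not in the stromal vascular fraction or in peritoneal macrophages. All were male C57Bl6 mice, 16 weeks old, fed CT (AIN93M) or HFD (D12492, with 60% fat) for 8 weeks, which gives the CT groups WT-CT and cKO-CT and the HFD groups WT-HFD and cKO-HFD. Total RNA of the tissue was pooled within each group, from 5 mice according to the methods and 4 to 5 according to the labels, and each pool was measured on 1 Affymetrix MoGene 1.0 ST array. There is therefore no replicate, no test and no p-value, the spread between mice is not seen, and the number of arrays limits the precision. The groups cKO-CT and WT-HFD differ in genotype and in diet at once, and the parts of these cannot be told apart. In bulk tissue, fewer cells of a type and less RNA per cell cannot be told apart either.

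*Napepld* encodes NAPE-PLD, a phospholipase that makes N-acylethanolamines, lipid mediators such as anandamide and palmitoylethanolamide. White fat stores triglyceride, which adipocytes take up as fatty acids from the blood or make themselves from glucose, and beige adipocytes within it burn fuel for heat through the uncoupling protein UCP1. Fat that expands in obesity is known for making less fatty acid of its own, for secreting more leptin and for gathering macrophages, among them lipid-laden cells that express *Gpnmb* and *Trem2*.

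The array values are log2 levels, in which an increase of 1 is a doubling of signal. Differences are cKO-CT minus WT-HFD on this scale, and a gene was taken as higher or lower in cKO-CT from a 1.5-fold ratio of the arrays upwards, a size taken from the study. Of 19938 genes, 217 were higher in cKO-CT (1.09%) and 345 were lower (1.73%), together 2.82%. The other 19376 genes, 97.2%, lay within 1.5-fold, and the median of all differences was 0.005. By at least 2-fold, 46 genes were higher and 116 lower, and by at least 4-fold 8 and 9. The olfactory receptor (*Olfr*) genes were taken as unexpressed and marked the background. The level that 95% of them did not reach was 5.28 on cKO-CT and 5.42 on WT-HFD. Among the 1027 *Olfr* genes, 6 were counted as higher and 35 as lower, so that the counts hold genes near background. Of the genes counted, 38 that were higher and 110 that were lower lay below that level on both arrays. Of the higher genes 128, and of the lower genes 143, reached a log2 level of 7 on one or both arrays.

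**Figure D1:**
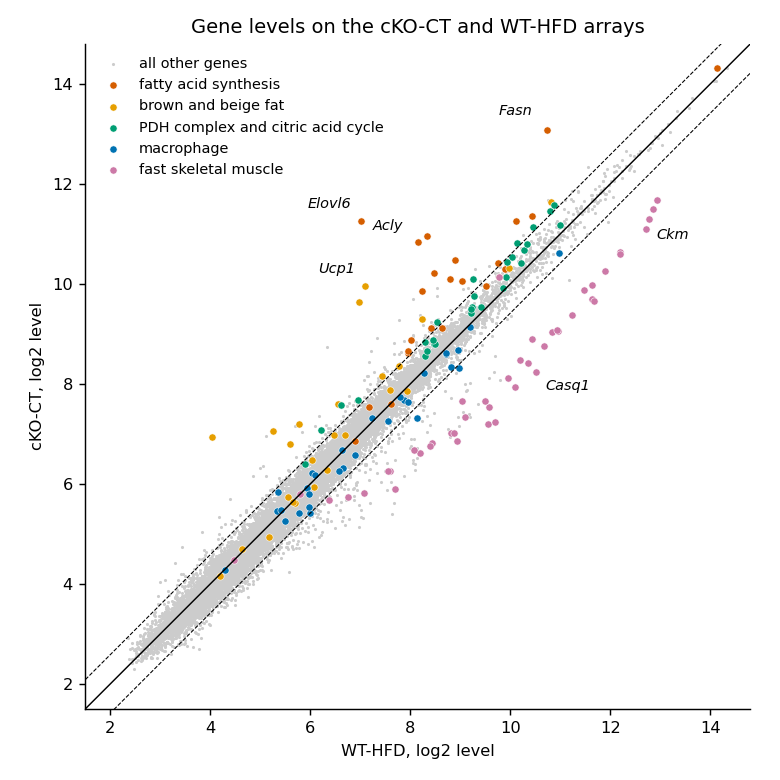
Log2 level of each of the 19938 genes on the WT-HFD array (horizontal) and the cKO-CT array (vertical), with genes of 5 lists in colour, the line of equal level drawn solid and the 1.5-fold bounds dashed. Most genes lie between the bounds. Above them lie 16 of 23 genes of fatty acid synthesis and 10 of 26 of brown and beige fat. Below them lie 41 of 44 genes of fast skeletal muscle.

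The enzymes that make fatty acids from glucose carbon had the highest median of the 47 gene lists. Of 23 genes of fatty acid synthesis measured, 16 were higher in cKO-CT, none was lower, and the median difference was 0.86, beside 0.005 over all genes. *Elovl6*, which elongates palmitate to stearate, had a log2 level of 11.27 on cKO-CT and 7.02 on WT-HFD, a difference of 4.25. It had the largest difference of all genes that reached a log2 level of 7 on one or both arrays. *Acly*, which splits citrate into cytosolic acetyl-CoA, stood at 10.84 on cKO-CT and 8.15 on WT-HFD, 6.44-fold apart. *Acaca*, whose product makes malonyl-CoA, stood at 10.95 and 8.33, 6.17-fold apart, and its 2 probe sets gave log2 differences of 2.54 and 2.71. *Fasn*, the fatty acid synthase itself, stood at 13.09 and 10.74, 5.09-fold apart. Consecutive steps of the pathway were thus all higher in cKO-CT. For each of these 4 genes both CT arrays were above both HFD arrays. *Tkt* of the pentose phosphate pathway (log2 difference 1.73), the acetate-activating *Acss2* (1.64), the lipogenic regulator *Thrsp* (1.58) and the mitochondrial carboxylase *Acacb* (1.31) followed. Some genes of the list were level. The stearoyl-CoA desaturase *Scd1* had a log2 level of 14.32 on cKO-CT and 14.13 on WT-HFD, and the desaturase *Fads2* had 7.59 and 7.62.

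The promoters of 3 of these genes are shown because their members differed together, one with no CCAAT box, one with 1 and one with 3. Each run holds 300 bases, most of them before the annotated gene start, from RefSeq on GRCm38.p6, written 5′ to 3′ on the strand of the gene. *Elovl6* lies at chr3:129532136-129532435 on the plus strand, *Acly* at chr11:100527951-100528250 and *Fasn* at chr11:120824498-120824797, both on the minus strand. Capitals mark CCAAT on the printed strand or, as ATTGG, on the other one.
Elovl6: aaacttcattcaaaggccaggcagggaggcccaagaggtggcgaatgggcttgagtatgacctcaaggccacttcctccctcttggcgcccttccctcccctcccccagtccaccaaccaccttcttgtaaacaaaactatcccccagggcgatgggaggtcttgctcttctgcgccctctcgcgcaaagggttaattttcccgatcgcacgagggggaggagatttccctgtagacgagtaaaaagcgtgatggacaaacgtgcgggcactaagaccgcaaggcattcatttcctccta
Acly: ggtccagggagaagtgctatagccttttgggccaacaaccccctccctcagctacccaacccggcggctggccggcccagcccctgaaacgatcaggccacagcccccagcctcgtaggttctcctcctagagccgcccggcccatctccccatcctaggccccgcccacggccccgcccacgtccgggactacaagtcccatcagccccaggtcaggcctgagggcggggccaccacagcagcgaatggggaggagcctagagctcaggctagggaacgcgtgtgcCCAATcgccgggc
Fasn: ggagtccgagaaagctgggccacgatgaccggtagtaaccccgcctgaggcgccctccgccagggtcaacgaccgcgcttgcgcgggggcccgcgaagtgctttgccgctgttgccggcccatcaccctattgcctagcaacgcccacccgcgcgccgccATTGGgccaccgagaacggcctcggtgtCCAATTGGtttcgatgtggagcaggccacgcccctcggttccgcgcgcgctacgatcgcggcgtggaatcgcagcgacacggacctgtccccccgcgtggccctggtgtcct
CCAAT, which the factor NF-Y is known to bind, was searched on both strands, and in *Fasn* a forward and a reverse match overlap. It occurs in 37.4% of the 32851 promoters of the table and, counting a gene once over all its promoters, in 41.1% of 27025 genes. Of the 16 genes of fatty acid synthesis that were higher, 14 had a promoter in the table and 10 of these held the motif (71.4%). Of all 20 measured genes of the list with a promoter, 14 held it (70.0%), so the genes that were higher and the list as a whole had nearly the same share. A match is a description of the letters in this window only.

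Genes of brown and beige fat were also among those that differed. Of 26 measured, 10 were higher in cKO-CT and none was lower, with a median difference of 0.41. *Ucp1*, the uncoupling protein, had a log2 level of 9.96 on cKO-CT and 7.10 on WT-HFD, 7.27-fold apart. *Cidea*, which acts on lipid droplets in brown fat, stood at 9.63 and 6.97, 6.30-fold apart. The elongase *Elovl3* stood at 6.94 on cKO-CT and at 4.04, below the background, on WT-HFD, so that cKO-CT was at least 2.86-fold higher. All 3 markers were thus higher on the CT array. *Slc27a2*, an acyl-CoA synthetase, stood at 7.05 on cKO-CT and 5.25 on WT-HFD, at least 3.11-fold higher. *Pank1*, which starts coenzyme A synthesis, had a log2 difference of 1.42, the thioesterase *Acot11* 1.19 and the nuclear receptor *Ppara* 1.05. The regulators *Prdm16* and *Ppargc1a* did not differ as much. *Prdm16* stood at 6.98 and 6.69, and *Ppargc1a*, the coactivator of mitochondrial biogenesis, at 6.48 and 6.03, both within 1.5-fold. The 2 probe sets of *Ppargc1a* gave log2 differences of 0.3 and 0.6, the second with WT-HFD at 5.14, below the background. *Tbx1* and *Tmem26*, used as beige markers, had log2 differences of -0.05 and -0.08.

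The pyruvate dehydrogenase complex and the citric acid cycle, which supply the citrate for fatty acid synthesis, were shifted as a whole. All 29 measured genes had differences above 0, 9 of them past 1.5-fold, with a median of 0.45. *Pdhb*, a subunit of the E1 enzyme of the complex, had a log2 level of 7.57 on cKO-CT and 6.62 on WT-HFD, a ratio of 1.94-fold. *Pdha1*, its partner subunit, stood at 10.10 and 9.26, and *Dlat*, the E2 subunit, at 9.25 and 8.54. *Mpc1*, which brings pyruvate into the mitochondrion, stood at 11.59 and 10.87. The kinase *Pdk1*, which inhibits the complex, was higher as well, at 7.07 and 6.22. Of 25 genes of fatty acid oxidation, 8 were higher, none was lower and the median was 0.48. *Hadhb* and *Hadha*, which together form the trifunctional protein of the mitochondrion, had log2 differences of 0.99 and 0.78, the very long chain dehydrogenase *Acadvl* 0.83 and the peroxisomal *Ehhadh* 0.98. *Cpt1a*, which admits long-chain fatty acids to the mitochondrion, stood at 8.94 on cKO-CT and 8.98 on WT-HFD. Synthesis and oxidation genes were thus higher on the same array.

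The respiratory chain was shifted less. Of 35 complex I genes 1 was higher, *Ndufb8* (log2 level 9.29 on cKO-CT and 8.55 on WT-HFD), with a median difference of 0.19. Of 33 genes of complexes III to V none was higher and 1 was lower, the ATP synthase gene *Atp5g1* (10.13 and 10.84), with a median of 0.28. Of 40 mitochondrial ribosomal proteins 2 were higher, *Mrps25* (0.69) and *Mrps10* (0.60), and of 21 genes of branched-chain amino acid breakdown none differed by 1.5-fold, with medians of 0.16 and 0.19. These medians were small beside those of the synthesis and oxidation lists.

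Triglyceride synthesis had 3 of 14 genes higher and none lower, with a median difference of 0.40. They were the acyltransferase *Agpat2* (log2 level 11.68 on cKO-CT and 10.76 on WT-HFD), *Pck1*, which makes glycerol precursors (12.34 and 11.56), and *Gpd1*, which makes glycerol phosphate (11.69 and 11.09). *Dgat2*, which closes the pathway, stood at 12.25 and 12.12. Of 14 genes of fatty acid uptake, *Slc27a2* alone was higher, and the scavenger receptor *Cd36* and lipoprotein lipase *Lpl* had log2 differences of 0.03 and 0.08. The uptake list had a median of 0.04, while 13 of the 14 triglyceride synthesis genes had differences above 0. Of 23 lipolysis and lipid droplet genes, *Cidea* and the ketone body receptor *Hcar2* (0.71) were higher and *Fitm1* (-1.57) was lower, with a median of 0.17. Of 21 genes of cholesterol synthesis and sterol balance 1 was higher, *Idi1* (0.63), with a median of 0.08. Among 24 genes of insulin action and glucose use, 5 were higher and 2 lower, with a median of 0.17. The insulin receptor substrate *Irs2* (log2 level 8.61 on cKO-CT and 7.77 on WT-HFD) and the phosphofructokinase *Pfkl* (8.30 and 7.50) were among the higher ones, with *Ldhb*, *Pfkp* and the monocarboxylate carrier *Slc16a1*. The muscle phosphofructokinase *Pfkm* (8.11 and 9.58) and the carrier *Slc16a3* (log2 difference -0.75) were the lower ones. *Slc2a4*, the insulin-responsive glucose transporter, stood at 9.14 and 8.75.

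**Figure D2:**
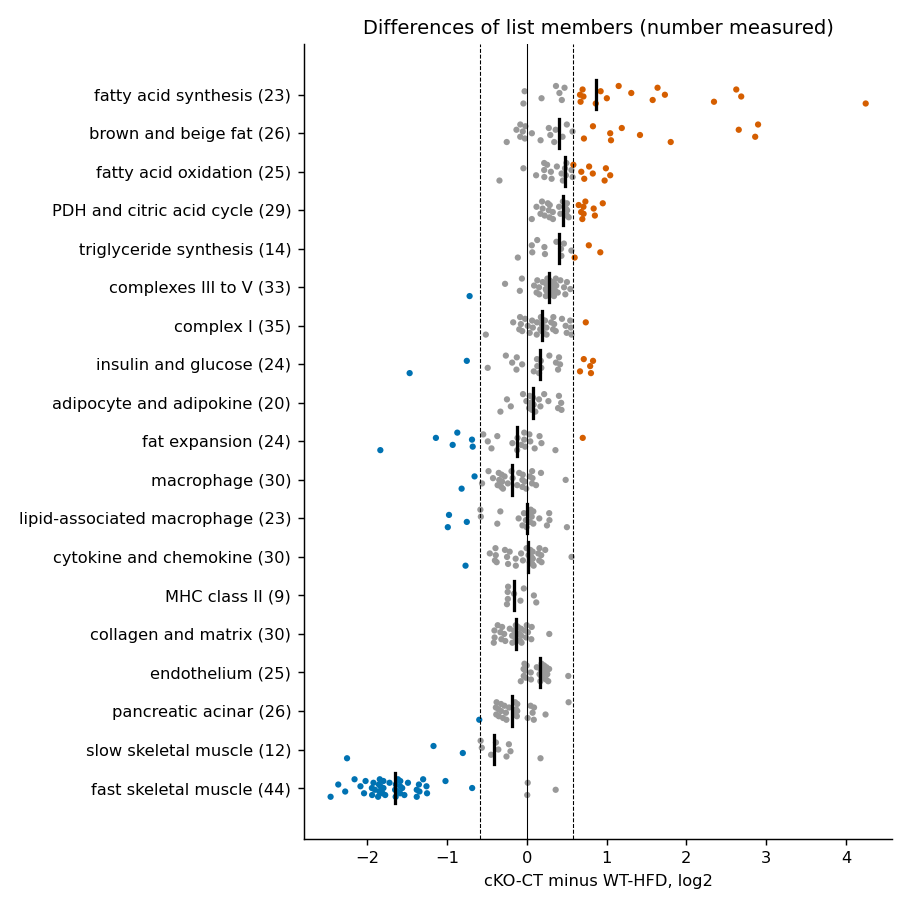
Difference in log2 level, cKO-CT minus WT-HFD, for each measured gene (points) of 19 lists, with the median of each list as a black bar and dashed lines at 1.5-fold. Orange points are higher and blue points lower by at least 1.5-fold. Metabolic lists lean to the right with medians up to 0.86, immune and matrix lists centre near 0, and fast skeletal muscle lies at a median of -1.64.

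Over the lists of fat metabolism, 53 of 283 genes were higher and 4 lower (20.1% past 1.5-fold, beside 2.82% of all genes), with a median difference of 0.28. Of the 201 genes in the lists of the immune system 1 was higher and 8 were lower (4.48%), with a median of -0.01. The stromal and vascular lists had 2 of 133 genes higher and 7 lower (6.77%), with a median of -0.02. Among the 7, *Tpm1*, *Tpm2* and *Des* are also in the fast muscle list. Of all genes whose mean log2 level on the 2 arrays reached 7, 4.01% passed 1.5-fold.

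The adipocyte's own secreted and identity genes did not separate the arrays. None of 20 differed by 1.5-fold, and the median was 0.08. *Lep*, which encodes leptin, had a log2 level of 11.73 on cKO-CT and 12.06 on WT-HFD, a ratio of 1.26-fold. Adiponectin (*Adipoq*) had a log2 difference of 0.07, resistin (*Retn*) stood at 13.31 and 13.32, and the fatty acid carrier *Fabp4* at 13.09 and 13.04. *Pparg*, the master regulator of adipocytes, stood at 10.85 and 10.42. *Fabp4*, *Cidec* and *Plin1* (12.23 and 12.08), which mark adipocytes, were far above the background on both arrays, in keeping with the labelled tissue. *Napepld* had a log2 level of 7.78 on cKO-CT and 8.01 on WT-HFD, 1.17-fold apart. Whether its probes match the deleted stretch could not be told here, so this level is no check of the genotype labels. Of 18 genes of N-acylethanolamine and endocannabinoid metabolism, *Ppara*, a receptor for these lipids, was the 1 that was higher, and the hydrolase *Naaa* stood at 9.17 and 9.18. Of 20 eicosanoid genes 1 was higher, the prostaglandin E synthase *Ptges* (8.25 on cKO-CT and 7.53 on WT-HFD). None of 20 ceramide genes differed by 1.5-fold. The medians of these 3 lists were -0.04, -0.02 and 0.04.

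Macrophage genes were close, with a lean towards WT-HFD. Of 30 macrophage markers none was higher in cKO-CT and 2 were lower, while 23 had differences below 0 and the median was -0.18. The cathepsin *Ctss* had a log2 level of 7.32 on cKO-CT and 8.13 on WT-HFD, and the lysosomal marker *Cd68* had 8.32 and 8.98, 1.57-fold apart. *Adgre1*, which encodes F4/80, stood at 7.25 and 7.54, and *Itgax*, which encodes CD11c, at 5.43 and 5.99. Of 23 genes of lipid-associated macrophages and lysosomes 3 were lower, and the median was 0.00. *Gpnmb* stood at 7.25 on cKO-CT and 8.24 on WT-HFD, 1.98-fold apart, and the macrophage elastase *Mmp12* at 5.65 and 6.62. *Atp6v0d2*, a proton pump subunit, stood at 4.81, below the background, and 5.56. The lipid receptor *Trem2* (log2 difference -0.58) was just within 1.5-fold, and after another scaling of the arrays, cyclic loess, it passed with -0.60, as did *Nceh1* with -0.59. The general lysosomal genes *Ctsb* (0.04), *Lipa* (0.04) and *Ctsd* (0.28) were on no side by 1.5-fold. Other members had differences above 0 without passing 1.5-fold, such as the droplet coat gene *Plin2* (0.50) and the fatty acid carrier *Fabp5* (0.25), and over the list 11 genes lay above 0 and 12 below. Of 21 genes of resident and alternatively activated macrophages, 1 was counted as lower, *Chil3*, which lay below the background on both arrays. *Mrc1* stood at 8.02 and 8.22 and *Lyve1* at 8.52 on both.

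Inflammatory mediators were mostly at one level. Of 30 cytokine and chemokine genes 1 was lower in cKO-CT, the B cell chemokine *Cxcl13* (log2 level 6.86 and 7.63), with a median difference of 0.01. The monocyte chemokine *Ccl2* stood at 5.94 and 6.33 and the eosinophil chemokine *Ccl11* at 9.52 and 9.91. *Tnf* and *Il1b* lay below the background on both arrays. Of 19 acute phase and lipopolysaccharide-sensing genes 1 was higher, *Lcn2* (6.06 on cKO-CT and 5.40, below the background, on WT-HFD, at least 1.56-fold). *Lbp*, the lipopolysaccharide-binding protein, stood at 10.05 and 10.39, 1.27-fold apart. None of 18 complement genes and none of 9 MHC class II genes differed by 1.5-fold, with medians of -0.12 and -0.16, and *Cd74* stood at 10.76 and 10.84. Of 21 interferon-stimulated genes 1 was lower, *Ifi27l2a* (11.24 and 11.95), with a median of 0.16. None of 19 T and natural killer cell genes and none of 14 B cell genes differed by 1.5-fold. Of these genes 6 and 3 lay above the background on either array, so that most could not show a difference.

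Some genes of the fat expansion list were lower in cKO-CT than in WT-HFD. The list was chosen with earlier results of these data known, so its order over the arrays is no independent evidence. Of its 24 measured genes 6 were lower in cKO-CT and 1 was higher, with a median difference of -0.12. The imprinted gene *Peg3* had a log2 level of 8.55 on cKO-CT and 9.69 on WT-HFD, 2.20-fold apart, and its imprinted neighbour *Zim1* had 5.59 and 6.51. *Rnase2a*, a ribonuclease of the eosinophil family, stood at 5.14, below the background, on cKO-CT and at 6.97 on WT-HFD, where it was at least 3.23-fold higher. The choline transporter *Slc5a7* (6.63 and 7.50), the lipase *Lipf* (7.15 and 7.84) and the oxytocin receptor *Oxtr* (7.23 and 7.91) completed the group. These 6 genes all had their lowest level on WT-CT and their highest on cKO-HFD, with cKO-CT below WT-HFD. *Sfrp2*, a secreted Wnt modulator, was the higher one (9.49 and 8.79).

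Matrix and vessel genes were nearly level. None of 30 collagen and matrix genes differed by 1.5-fold, although 25 had differences below 0, with a median of -0.13. *Col3a1* had a log2 level of 9.33 on cKO-CT and 9.73 on WT-HFD, and *Col6a3*, abundant in fat, had 8.41 and 8.81. Of 22 matricellular and protease genes *Mmp12* was the 1 that was lower, with a median of -0.12. None of 25 endothelial genes differed by 1.5-fold, with a median of 0.17. The VEGF receptor *Kdr* had the largest difference among them, at 8.54 and 8.02. Of 20 angiogenic and hypoxia genes 2 were higher, *Angpt1* (6.27 and 5.56) and *Vegfa* (9.80 and 9.21), and *Vegfa* was no longer past 1.5-fold after cyclic loess (log2 difference 0.54). Of 17 stromal progenitor genes 2 were lower, the fibroblast marker *Pi16* (8.61 and 9.27) and *Thy1* (7.64 and 8.25), with a median of 0.05. Of 19 smooth muscle genes 4 were lower, but *Tpm2*, *Tpm1* and *Des* are also skeletal muscle genes, which leaves *Synpo2* (8.38 and 8.97). *Acta2* and *Myh11*, the smooth muscle actin and myosin, had log2 differences of 0.21 and 0.30.

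**Figure D3:**
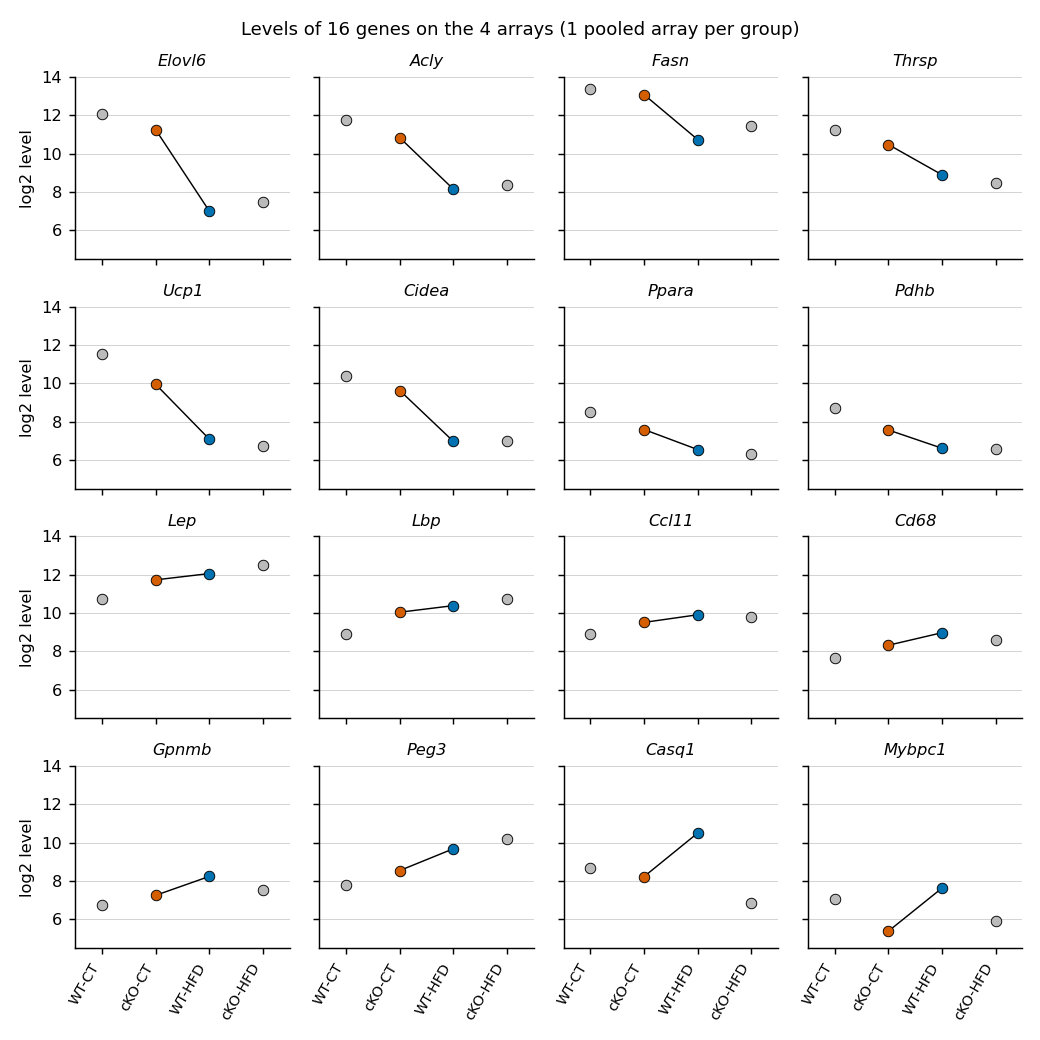
Log2 level of 16 genes on the 4 arrays, 1 pooled array per group, with cKO-CT in orange, WT-HFD in blue and a line joining them. *Elovl6*, *Acly*, *Fasn*, *Thrsp*, *Ucp1*, *Cidea*, *Ppara* and *Pdhb* step down from cKO-CT to WT-HFD, *Lep*, *Lbp* and *Ccl11* lie within 1.5-fold, and *Cd68*, *Gpnmb*, *Peg3*, *Casq1* and *Mybpc1* step up.

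Skeletal muscle genes made up the largest differences in the other direction. Of 56 genes in the lists of fast and slow muscle, 44 were lower in cKO-CT and none was higher. Of the 20 genes with the largest differences below 0, 16 belonged to these lists. The rest, *Ppp1r3a* (-2.06), *Tmod4* (-1.89), *A930016O22Rik* (-1.86) and *Klhl31* (-1.86), had WT-HFD highest and cKO-HFD lowest of the 4 arrays. Of 44 fast and general muscle genes 41 were lower, with a median difference of -1.64. *Casq1*, the calcium store of fast fibres, had a log2 level of 8.24 on cKO-CT and 10.51 on WT-HFD, 4.83-fold apart. *Ampd1*, a muscle deaminase, had a log2 difference of -2.36, and the muscle creatine kinase *Ckm* at 11.29 and 12.78. The median log2 level of the list was 8.02 on WT-CT and 8.03 on cKO-CT, against 9.87 on WT-HFD and only 6.39 on cKO-HFD, so WT-HFD stood apart from both CT arrays and cKO-HFD stood apart the other way. *Myod1*, the myogenic regulator, had a log2 difference of 0.01. Of 12 slow muscle genes 3 were lower, of which *Mybpc1* (5.39 on cKO-CT and 7.64 on WT-HFD) had the largest difference and *Myl2* lay below the background on both arrays. *Myh7*, the slow myosin, stood at 5.25, below the background, on cKO-CT and at 6.42 on WT-HFD, where it was at least 2.20-fold higher. *Mybpc1* was high on both WT arrays (7.06 on WT-CT) and low on both cKO arrays (5.89 on cKO-HFD), with its lowest level on cKO-CT. Many fast genes, such as *Casq1*, also had both WT arrays above both cKO arrays, but with cKO-HFD lowest. A wide step from WT-CT to cKO-CT was seen in *Myh1* (7.72 and 6.62) and *Mb* (8.04 and 6.82) as well. Of 12 creatine and calcium cycling genes 3 were lower, all of them muscle genes (*Atp2a1*, *Ckm* and *Ckmt2*), with a median of -0.15. Several lower genes outside the muscle lists, *Pfkm*, *Fitm1* and the sarcomeric creatine kinase *Ckmt2* (5.18, below the background, and 6.70), are also known from muscle. They had the same order over the 4 arrays as *Casq1*, and so did the carrier *Slc16a3*. The part of muscle RNA in the other results was not tested. The fatty acid synthesis, brown fat and citric acid cycle genes were higher on the array with the lower muscle signal. Without the genes of the muscle, acinar, liver and epithelial lists and the olfactory and vomeronasal receptors, 209 genes were higher and 259 lower. Genes outside these lists, such as *Pfkm*, *Fitm1*, *Ckmt2*, *Ppp1r3a*, *Tmod4* and *Klhl31*, stayed in these counts.

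In the lists for other tissues few genes differed by 1.5-fold. Of 26 pancreatic acinar genes 1 was lower, *Cpa1* (log2 level 5.21, below the background, and 5.81), of 20 liver genes 1 was higher, albumin (*Alb*, 9.77 and 8.54), and of 26 epithelial genes none passed 1.5-fold. On either array 9 acinar, 8 liver and 6 epithelial genes lay above the background, and the liver list holds genes with high levels here, such as transferrin (*Trf*, log2 level 12.21 on cKO-CT and 11.88 on WT-HFD). The acinar genes had a median level of 6.25 on WT-CT and at most 5.01 on the other 3 arrays, so the comparison of cKO-CT with WT-HFD does not carry the acinar signal of WT-CT.

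A few genes outside the fat lists were also among the 20 with the largest differences above 0. *Cyp2f2*, a cytochrome P450, had a log2 level of 8.74 on cKO-CT and 6.34 on WT-HFD, 5.27-fold apart. *Hsd11b1*, which regenerates active glucocorticoid, stood at 9.70 and 8.06, and the phosphatase *Phospho1* at 8.45 and 7.17. *Med28*, a Mediator subunit, stood at 8.66 on cKO-CT and 7.22 on WT-HFD, and it was high on both cKO arrays (8.26 on cKO-HFD) and lower on both WT arrays (7.60 on WT-CT). That order, with both cKO arrays above both WT arrays, was found in 30 of the 217 higher genes. In 183 of the 217 both CT arrays were above both HFD arrays. The higher and lower genes were picked by cKO-CT against WT-HFD, which fixes part of each order beforehand. Such counts therefore do not weigh diet against genotype. Of the 345 lower genes, 166 had both WT arrays above both cKO arrays and 99 had both HFD arrays above both CT arrays. Many of the 166 were skeletal muscle genes with WT-CT little above cKO-CT, such as *Ttn* (9.28 and 9.07) and *Neb* (9.48 and 9.39). Among the lower genes 170 had WT-HFD highest and cKO-HFD lowest, so the 166 cannot be read as genes that follow the genotype. Of 17 clock genes 2 were higher, the repressor *Bhlhe40* (8.15 and 7.13) and its relative *Bhlhe41* (7.27 and 6.68), and of 30 antioxidant and aldehyde genes 2 were higher, the glutathione transferases *Gsta4* (7.76 and 6.78) and *Mgst2* (6.85 and 6.12). Of 16 homeobox and depot genes 1 was lower, *Tbx15* (7.25 and 7.91). A list of genes that the study named from these arrays or measured by qPCR, which does not hold all of them, had 23 measured genes. Of these, 6 were higher (*Elovl3*, *Ucp1*, *Cidea*, *Acaca*, *Fasn* and *Ppara*) and 1 was lower (*Cd68*), with a median of 0.07. *Fabp3* (log2 difference -0.08) and *Cox7a1* (0.36), which the study also named, are outside the list and were within 1.5-fold. Since the study chose its genes on these samples, they are no independent evidence of a direction. None of 24 immediate early, 26 cell cycle and 21 endoplasmic reticulum stress genes differed by 1.5-fold.

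The remaining arrays, WT-CT and cKO-HFD, form a second pair of CT over HFD that shares no array with the first but has the genotypes the other way round. In WT-CT over cKO-HFD, 680 genes were higher (3.41%) and 670 lower (3.36%), together 6.77%. Of the 217 genes higher in cKO-CT than in WT-HFD, 121 were also higher in this pair, which is 55.8% of the first list and 17.8% of the second, and 4 were lower. The 16 genes of fatty acid synthesis that were higher in the first pair stood beside 16 in the second, with list medians of 0.86 and 1.09. For brown and beige fat the counts were 10 and 15, with medians of 0.41 and 0.83, and for the citric acid cycle 9 and 22, with medians of 0.45 and 0.86. Most genes higher in the first pair were thus higher in the second as well, and the medians of these 3 lists were smaller where the CT mice were cKO and the HFD mice WT. Of the 345 lower genes, 28 were lower in the second pair as well, 8.12% of the first list and 4.18% of the second, and 106 were higher there. For fast muscle the medians were -1.64 and 1.84, since WT-HFD held the most muscle signal and cKO-HFD the least. Of the lower genes 170 had that order, WT-HFD highest and cKO-HFD lowest of the 4 arrays. *Tbx15*, *Pi16* and *Cxcl13*, named above in other lists, were among them. The second pair also held differences that the first did not. Of the collagen and matrix genes 9 were lower in WT-CT than in cKO-HFD, of the endothelial genes 12 and of the fat expansion genes 13, beside 0, 0 and 6 in the first pair. Over the whole metabolic lists 47.0% passed 1.5-fold in the second pair, over the immune lists 13.4% and over the stromal and vascular lists 39.8%.

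**Figure D4:**
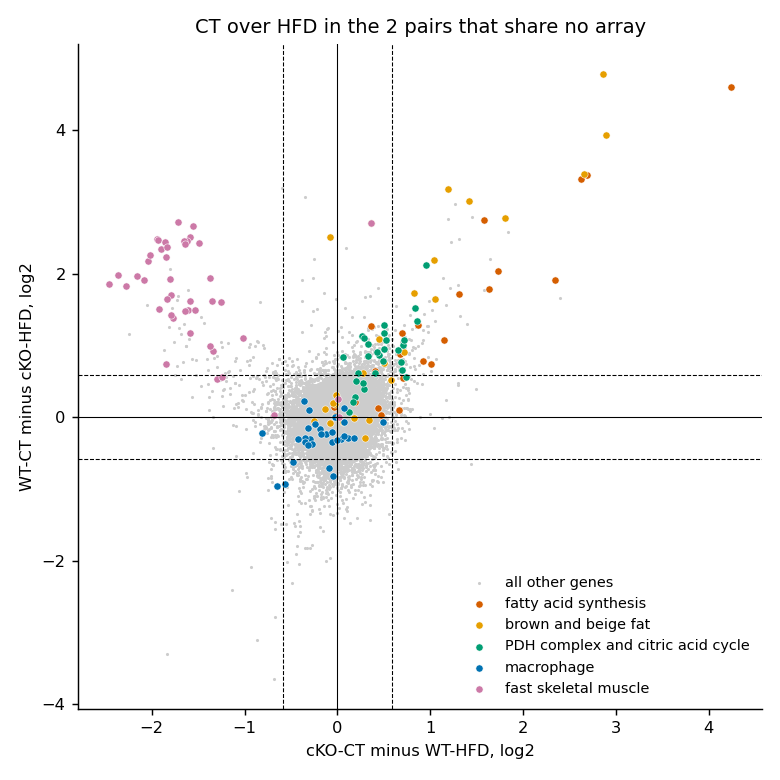
Difference in log2 level for each gene in cKO-CT minus WT-HFD (horizontal) and in WT-CT minus cKO-HFD (vertical), with genes of 5 lists in colour and dashed lines at 1.5-fold. Genes of fatty acid synthesis, brown and beige fat and the citric acid cycle lie towards the upper right, genes of fast muscle lie at the upper left, and macrophage genes lie near the centre and to its lower left.

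The arrays were also counted in all 6 pairings. Either way by 1.5-fold, 562 genes differed between cKO-CT and WT-HFD (2.82%), 627 between WT-HFD and cKO-HFD (3.14%), 630 between WT-CT and cKO-CT (3.16%), 794 between cKO-CT and cKO-HFD (3.98%), 1163 between WT-CT and WT-HFD (5.83%) and 1350 between WT-CT and cKO-HFD (6.77%). The pair of cKO-CT and WT-HFD thus had the fewest at this size. At 2-fold it had 162, beside 61 between WT-CT and cKO-CT and 149 between cKO-CT and cKO-HFD, so the order depends on the size chosen. Without the genes of the other-tissue lists and the receptors, the 2-fold count was 116 for cKO-CT and WT-HFD. The count was 38 for WT-CT and cKO-CT and 108 for cKO-CT and cKO-HFD. The 116 still hold genes known from muscle outside those lists, such as *Pfkm* and *Fitm1*. The pairings share arrays, and these counts describe the 4 pools only.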

How the data were processed

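Total RNA of SAT was pooled within each of 4 groups and hybridized to Affymetrix MoGene 1.0 ST arrays, 1 per group, so a group is 1 sample. The authors deposited 1 log2 level for each probe set and array, obtained by RMA, in which background is removed, the arrays are brought to one distribution by quantiles and the probes of a set are summarised. The methods name RMA-Sketch in the Affymetrix APT suite, and the submitters' processing notes name RMA and Affymetrix Expression Console, with no version given. Quantile normalization forces the arrays to one distribution, so a difference is relative to the other genes of the array. The authors' detection filter was not applied.

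Groups came from the labels. Of 35556 probe sets, 21789 had 1 gene name in GEO's platform annotation, which can be old, 1621 had several and 12146 had none. Probe sets naming the same single gene were averaged, which gave 19938 genes, 999 of them from several probe sets. The 47 gene lists hold 1075 symbols, and 1006 were measured, 8 through an updated symbol. The pair of arrays and the lists were chosen with earlier results of these data known. A gene was counted at 1.5-fold. Where its dimmer level lay below the 95th percentile of the *Olfr* genes, the fold is given as a bound against that level. Named genes include *Napepld* and genes from a list of those the study named or measured by qPCR. Others came from the 20 with the largest difference each way among genes reaching a log2 level of 7 on one or both arrays. From each list came up to 6 members each way, up to 3 nearest to 0, and all members past 1.5-fold where 5 or fewer were. *Adipoq* and *Plin1* were added as adipocyte markers.

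Alternatives took the brightest probe set of a gene or single probe sets. Others took genes that passed the *Olfr* background on one or both arrays, or genes whose mean log2 level reached 7. Arrays were also centred on their medians or scaled by cyclic loess (span 0.7, 3 iterations). The last took a 2-fold size, or left out the genes of the other-tissue lists and the receptors. The steps were tested on simulated data. Promoters were matched by symbol to RefSeq on GRCm38.p6. The software was R 4.3.3 (limma 3.58.1) and Python 3.11.15 (pandas 2.3.3, numpy 2.4.6, matplotlib 3.10.9).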

Additional observations from a re-analysis of the deposited data

How the results depend on the processing

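The counts of 217 genes higher and 345 lower in cKO-CT than in WT-HFD were 222 and 317 after cyclic loess. After centring on the median the counts were 256 and 308, with the highest probe set 217 and 347. Over probe sets one by one the counts were 245 and 402, over genes above the *Olfr* background 179 and 235. Without the genes of the other-tissue lists and the receptors the counts were 209 and 259. They were 106 and 113 over genes whose mean log2 level reached 7, and 46 and 116 at 2-fold. No median of the 47 lists moved by more than 0.1 under either scaling or with the highest probe set. Over genes whose mean log2 level reached 7, some medians moved by more than that. They were brown and beige fat (0.72, 11 genes), fast muscle (-1.78), slow muscle (-0.22, 1 gene), liver (0.52, 3 genes) and homeobox and depot genes (0.26). The others were stromal progenitors (-0.13), cytokines (-0.14), N-acylethanolamine genes (0.09) and the list of study genes (0.18). Over genes above the *Olfr* background, the medians of cytokines (-0.14), N-acylethanolamine genes (0.09), T and natural killer cells (0.11) and the list of study genes (0.22) did. These filters hold fewer genes, and the medians of the N-acylethanolamine, cytokine and stromal lists, which lay within 0.1 of 0, took the other sign. No acinar, epithelial, T, natural killer or B cell gene reached a mean of 7, so these medians could not be computed there. At 2-fold 10 genes of fatty acid synthesis, 1 of fatty acid oxidation and none of the citric acid cycle were higher. After cyclic loess *Bhlhe41*, *Mrps10* and *Vegfa* were no longer past 1.5-fold, *Il15*, *Fabp1* and *Timd4* were higher, and 5 genes of lipid-associated macrophages were lower in place of 3. With its brightest probe set *Hibadh* was higher (0.67). No paired analysis was possible because each group has 1 array. One pool per group, genes near background and muscle signal that differs between the arrays limit what the values show.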
